A study of Mus musculus with 30 samples.

Results

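The heat shock proteins and small chaperones described here are 10 mouse genes, picked by symbol from a list: Hspa1a, Hspa1b, Hspa8, Hsp90aa1, Hsph1, Hspb1, Hspb6, Hspb7, Cryab and Bag3. All 10 were found by Entrez identifier among the 24467 genes counted. The study sequenced mRNA from the left ventricle of 30 mouse hearts in 4 groups. Transgenic hearts, labelled TG, carried hRXFP1tg, a transgene for the human relaxin receptor RXFP1, and non-transgenic hearts, labelled NTG, were titled wildtype. The groups were 10 TG hearts at 8 weeks of transverse aortic constriction (TG TAC), 5 TG hearts after sham surgery (TG Sham), 10 NTG hearts at 8 weeks of constriction (NTG TAC) and 5 NTG hearts after sham surgery (NTG Sham). Transverse aortic constriction narrows the aortic arch and loads the left ventricle with pressure. The promoter that drives the transgene, the number of founder lines, the strain, the sex and the age were not given in the sources used here.

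Heat shock proteins are chaperones that bind unfolded stretches of other proteins. Members of the HSP70 family fold clients in cycles of ATP use, HSP110 proteins such as Hsph1 exchange their nucleotide, and HSP90 finishes the folding of kinases, receptors and myosin with a set of co-chaperones. Small heat shock proteins hold unfolding proteins without ATP, and in heart muscle several of them sit on the sarcomere, where Bag3 links them to HSP70 and to autophagy. Under proteotoxic stress the transcription factor Hsf1 binds heat shock elements, inverted repeats of a GAA unit, in the promoters of many of these genes.

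Promoters were matched for 7 of the 10 members, and 5 are printed because they set a strongly stress-inducible pair (Hspa1a, Hspa1b) and the member with the smallest p for the transgene (Hsph1) beside a small heat shock gene with matches (Hspb1) and one without (Hspb7). Each is the stretch of 250 bases before a RefSeq start site on GRCm38.p6, read 5′ to 3′ on the strand of the gene, and capitals mark each TTCNNGAA or GAANNTTC, the inverted pair of heat shock units, searched on both strands. The windows are chr17:34972157-34972406 on the minus strand (Hspa1a), chr17:34959239-34959488 on the minus strand (Hspa1b), chr5:149636337-149636586 on the minus strand (Hsph1, start site 1), chr5:135887669-135887918 on the plus strand (Hspb1) and chr4:141420529-141420778 on the plus strand (Hspb7).
Hspa1a: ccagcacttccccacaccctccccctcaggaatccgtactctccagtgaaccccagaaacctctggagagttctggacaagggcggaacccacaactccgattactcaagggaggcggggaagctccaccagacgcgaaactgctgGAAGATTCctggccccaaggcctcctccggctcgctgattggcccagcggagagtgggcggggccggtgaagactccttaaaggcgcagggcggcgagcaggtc
Hspa1b: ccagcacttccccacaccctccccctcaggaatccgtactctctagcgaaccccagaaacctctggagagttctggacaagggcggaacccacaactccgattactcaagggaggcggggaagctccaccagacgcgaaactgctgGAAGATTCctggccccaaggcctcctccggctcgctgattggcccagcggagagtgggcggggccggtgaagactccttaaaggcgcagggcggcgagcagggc
Hsph1: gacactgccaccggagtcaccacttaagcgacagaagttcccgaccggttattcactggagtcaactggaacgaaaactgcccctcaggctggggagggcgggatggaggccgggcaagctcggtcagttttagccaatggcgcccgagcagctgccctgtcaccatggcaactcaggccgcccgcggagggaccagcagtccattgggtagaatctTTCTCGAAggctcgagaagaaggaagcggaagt
Hspb1: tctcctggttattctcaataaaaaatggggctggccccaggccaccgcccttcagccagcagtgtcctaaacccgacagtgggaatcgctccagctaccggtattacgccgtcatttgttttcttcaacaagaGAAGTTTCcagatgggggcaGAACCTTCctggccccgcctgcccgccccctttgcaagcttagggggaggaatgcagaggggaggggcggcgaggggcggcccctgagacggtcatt
Hspb7: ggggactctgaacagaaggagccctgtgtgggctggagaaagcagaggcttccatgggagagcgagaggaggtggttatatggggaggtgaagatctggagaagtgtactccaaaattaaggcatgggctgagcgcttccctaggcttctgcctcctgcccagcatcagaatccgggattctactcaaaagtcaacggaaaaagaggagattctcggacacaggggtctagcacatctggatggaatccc
Hspa1a and Hspa1b had equal letters at 247 of 250 positions, and both held one GAANNTTC pair at the same distance from the start. Hsph1 held a TTCNNGAA pair 33 bases before its first start site. Hspb1 held GAANNTTC pairs at 117 and 97 bases before the start. Hspb6 held a GAANNTTC pair before its second start site, at 120 bases, and none before the first, while Hspb7 and Bag3 held no match in these windows. One of the motifs occurred in 12.8% of all 32851 windows of the same length (7.17% for TTCNNGAA and 6.69% for GAANNTTC). A match describes the letters only.

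The libraries held 9231678 to 13093351 counts each, and all 10 members passed the filter on low counts, as did 13588 genes in all. Levels below are CPM, counts scaled to the library total and then by the trimmed mean of M values (TMM). A difference is called where the adjusted p of edgeR's quasi-likelihood test, over all 13588 genes, was under 0.05. The hearts are labelled as replicates with no word on cage, litter or surgery day, so p-values measure the spread between these libraries. Ventricular muscle markers (Myl2, Myh6, Tnnt2 and 6 others) summed to 85737 to 94764 CPM in TG TAC, 88491 to 95555 CPM in TG Sham, 54427 to 94018 CPM in NTG TAC and 90388 to 102251 CPM in NTG Sham hearts, while the 4 atrial markers reached at most 7.92 CPM in any heart. In whole tissue, fewer cells of a type and less RNA per cell cannot be told apart. Lymphocyte markers summed to 247 CPM in NTG Sham replicate 5 and to at most 21.1 CPM in every other heart, and among the named genes the calls that end without this heart are Hsph1 and Hspb1 with load in NTG hearts, Hspa1b with the transgene after constriction and Dnajb6 with load in TG hearts.

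In NTG Sham hearts the sarcomeric small heat shock genes stood far above the inducible genes per exon length. Hspb6 had 2073 CPM per kb of exon (1944 to 2257 over 5 hearts), Hspb7 had 1954 CPM per kb (1841 to 2107) and Cryab had 1849 CPM per kb (1765 to 1913). The Hspb7 range overlapped the other two, while every heart's Hspb6 value lay above the Cryab range. Hspa8, the constitutive cytosolic HSP70, followed at 531 CPM per kb (497 to 613). Hspb1 and Bag3 came next with overlapping ranges, at 232 CPM per kb (216 to 267) and 216 CPM per kb (201 to 235). Hsp90aa1, the inducible HSP90, had 27.4 CPM per kb (23.8 to 32.1) and Hsph1 had 10.3 CPM per kb (7.79 to 13.02). The inducible HSP70 pair was lowest and overlapped, with Hspa1a at 0.815 CPM per kb (0.572 to 1.13) and Hspa1b at 0.788 CPM per kb (0.463 to 0.981).

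**Figure D1:**
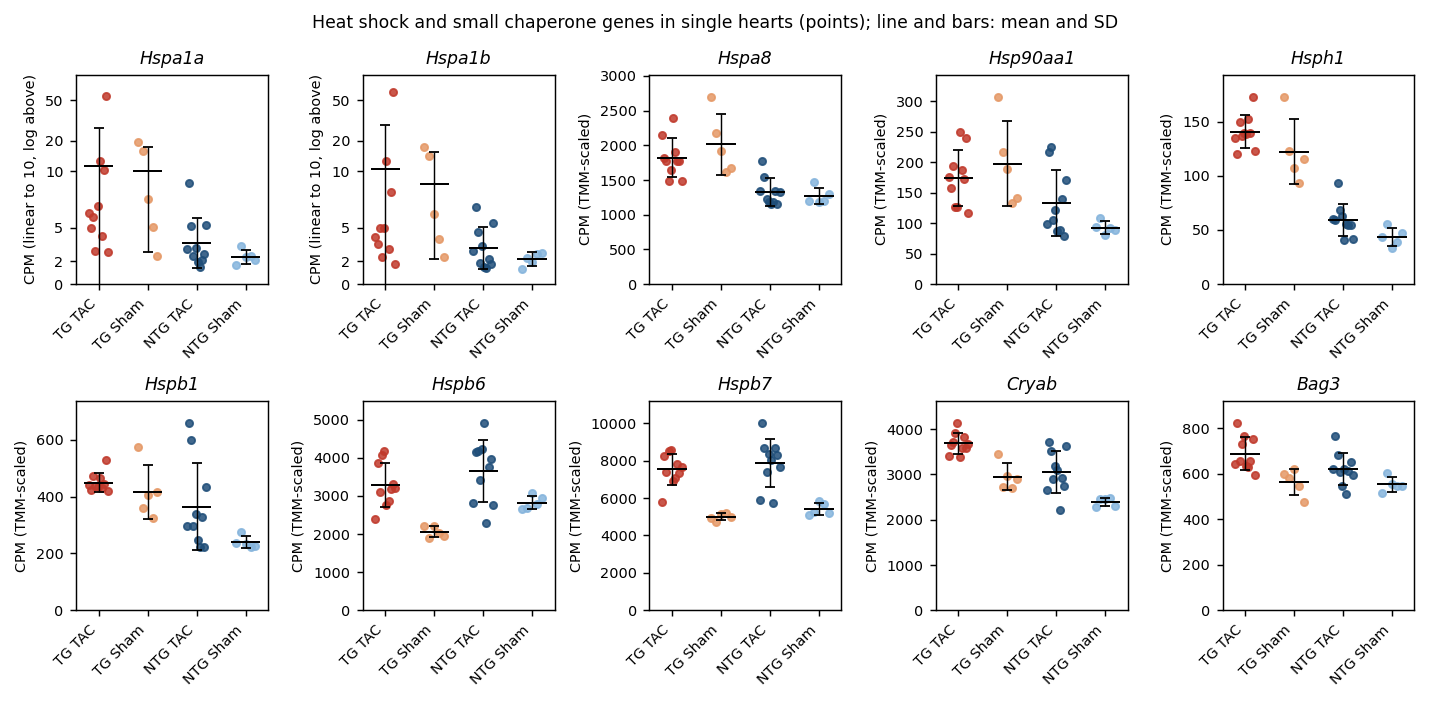
Level of each of the 10 genes in every heart (points), in TMM-scaled CPM, for TG TAC, TG Sham, NTG TAC and NTG Sham from left to right; lines and bars are the mean and SD, and the Hspa1a and Hspa1b axes are linear to 10 and logarithmic above. Hsph1 lies at 119.9 CPM or more in every TG TAC heart and at 93.3 CPM or less in every NTG TAC heart, and 1 TG TAC heart stands far above the rest for Hspa1a and Hspa1b.

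Hsph1 and Hspa8, of the cytosolic folding machinery, were higher in transgenic hearts after either surgery. In sham hearts Hsph1 and Hspa8 rose, which is 2 of 10 members higher and 0 lower against 0.729% of genes called (0.596% higher, 0.132% lower). After constriction Hsph1, Hspa8, Cryab, Hspa1a and Hspa1b rose, which is 5 of 10 higher and 0 lower against 11.4% of genes called (4.57% higher, 6.86% lower). The members were chosen with earlier results of these data known. The shares, here and with load, are therefore set side by side and are not a test. The members' median log2 fold change was 0.73 in sham hearts and 0.34 after constriction, where the median of all genes tested lay within 0.007 of 0 in every comparison. The TAC and Sham comparisons of genotype use different hearts, but in the 4-group fit they share one estimate of the spread. Hypertrophy genes differed as well after constriction, with 4 of 5 lower in TG hearts and a summed level of 3528 to 15248 CPM in TG TAC and 5769 to 38280 CPM in NTG TAC hearts. In sham hearts 0 of 5 were called. There 4 of 5 values were negative, with a median log2 fold change of -0.75, and 2 had an unadjusted edgeR p under 0.05. Their summed level was 1750 to 3082 CPM in TG Sham and 2728 to 4295 CPM in NTG Sham hearts. The part of hypertrophy genes in the members' differences was not tested.

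Hsph1 (Entrez 15505, chr5:149616843-149636498 on GRCm38.p6, as for the positions that follow), the HSP110 that recharges HSP70 with ATP, had the smallest adjusted p of the members in both genotype comparisons. Its levels were 172, 123, 107.3, 93.0 and 116 CPM in TG Sham hearts and 43.3, 55.0, 32.9, 39.2 and 47.0 CPM in NTG Sham hearts. After constriction it had a lowest, median and highest level of 119.9, 139 and 173 CPM in TG TAC hearts and 41.1, 57.1 and 93.3 CPM in NTG TAC hearts. Every TG heart stood above every NTG heart of the same surgery. The mean was 122 ± 30.2 CPM in TG Sham and 43.5 ± 8.30 CPM in NTG Sham hearts (SD, n = 5 each), a 2.81-fold ratio, with a log2 fold change of 1.49 ± 0.17 (SE, edgeR adjusted p = 4.13e-06). It was 141 ± 15.1 CPM in TG TAC and 59.1 ± 14.8 CPM in NTG TAC hearts (SD, n = 10 each), a 2.38-fold ratio, with a log2 fold change of 1.25 ± 0.12 (SE, edgeR adjusted p = 6.8e-08). Leaving out each of the 30 hearts in turn kept both calls, with log2 fold changes of 1.33 to 1.59 in sham hearts and 1.20 to 1.35 after constriction. In sham hearts 6 of 10 members had groups that did not overlap (Hsph1, Hspa8, Hsp90aa1, Hspb1 and Cryab higher in TG, Hspb6 lower). Among all genes, groups that did not overlap were found with TG higher in 1.89% and lower in 1.68% in sham hearts, and in 0.265% and 0.0662% after constriction, where Hsph1 was the one member of 10 without overlap.

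Hspa8 (Entrez 15481, chr9:40801276-40805202), the HSP70 that folds proteins and uncoats vesicles in unstressed cells, had 2697, 2179, 1912, 1619 and 1666 CPM in TG Sham hearts and 1202, 1469, 1189, 1198 and 1302 CPM in NTG Sham hearts. The 2 sham groups did not overlap, and TG Sham replicate 1 was highest. Its log2 fold change was 0.66 ± 0.13 (SE, edgeR adjusted p = 0.00733), a 1.58-fold ratio of means, and without TG Sham replicate 1 it was 0.54 (edgeR adjusted p = 0.0555), short of the threshold. Of the 100-base windows of Hspa8 28.2% recur in other genes, mostly in Gm15459, and of those of Hsp90aa1 38.0%, mostly in Gm12346; neither of these has a row in the counted genes, and counts may be split. After constriction Hspa8 had a lowest, median and highest level of 1484, 1777 and 2395 CPM in TG TAC hearts and 1153, 1273 and 1781 CPM in NTG TAC hearts. These ranges overlapped, while all 10 TG TAC hearts lay above the NTG TAC mean. On the log2 scale the change was 0.46 ± 0.09 (SE, edgeR adjusted p = 0.003), and it was called with any one heart left out, at 0.41 to 0.52.

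Hsp90aa1 (Entrez 15519, chr12:110691036-110696395) showed the same order of groups with more scatter. Its levels were 307, 217, 189, 134 and 142 CPM in TG Sham hearts and 93.2, 109, 80.4, 92.2 and 89.1 CPM in NTG Sham hearts. The sham groups did not overlap, and TG Sham hearts spread over a wider range. The fitted log2 fold change was 1.09 ± 0.28 (SE, edgeR adjusted p = 0.0682), not called in the 4-group fit, and DESeq2 put its adjusted p at 0.0225. After constriction the lowest, median and highest levels were 117, 174 and 250 CPM in TG TAC hearts and 79.4, 113.3 and 225 CPM in NTG TAC hearts, which overlapped, with a log2 fold change of 0.39 ± 0.19 (SE, edgeR adjusted p = 0.196). With 1 surrogate variable, a term computed from the data for spread that the groups do not explain, it was 0.79 and called (edgeR adjusted p = 0.0103).

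Hspa1a (Entrez 193740, chr17:34969359-34972156) and Hspa1b (Entrez 15511, chr17:34956429-34959238) encode nearly identical inducible HSP70 proteins and were the lowest members, with 13 to 673 counts in a library. Of the 100-base windows of their transcripts, 48.6% for Hspa1a and 49.9% for Hspa1b occur in another gene, mostly in each other, so the split of reads between them is uncertain. Hspa1a had 19.3, 15.8, 7.55, 5.09 and 2.52 CPM in TG Sham hearts and 1.70, 3.35, 2.41, 2.49 and 2.14 CPM in NTG Sham hearts. Hspa1b had 17.4, 14.1, 6.19, 4.0 and 2.41 CPM in TG Sham hearts and 1.30, 2.30, 1.99, 2.71 and 2.75 CPM in NTG Sham hearts. For each gene 4 of 5 TG Sham hearts stood above the highest NTG Sham heart, and the groups overlapped. The Hspa1a log2 fold change was 2.05 ± 0.75 (SE, edgeR adjusted p = 0.419), and that of Hspa1b was 2.0 ± 0.85 (SE, edgeR adjusted p = 0.559), so neither was called.

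After constriction Hspa1a had a lowest, median and highest level of 2.84, 6.09 and 55.1 CPM in TG TAC hearts and 1.499, 2.88 and 8.92 CPM in NTG TAC hearts. Hspa1b had 1.74, 4.61 and 60.5 CPM in TG TAC hearts and 1.40, 2.55 and 6.80 CPM in NTG TAC hearts. TG TAC replicate 9 stood alone at the top for both genes, and the groups overlapped. Hspa1a rose with a log2 fold change of 1.61 ± 0.50 (SE, edgeR adjusted p = 0.0361), and Hspa1b with 1.71 ± 0.56 (SE, edgeR adjusted p = 0.0467). Without TG TAC replicate 9 the log2 fold changes were 0.78 for Hspa1a (edgeR adjusted p = 0.158) and 0.65 for Hspa1b (edgeR adjusted p = 0.282). Much of the size of both thus rests on this heart, and neither call held without it. With all hearts, some other settings kept both calls. Voom with quality weights (adjusted p = 0.232 and 0.340) and the fit of these groups alone (edgeR adjusted p = 0.0759 and 0.0944) did not. Leaving out single hearts ended the Hspa1a call in 6 of 30 cases and the Hspa1b call in 21, among them NTG Sham replicate 5 for Hspa1b (edgeR adjusted p = 0.0515). With the counts of the 2 genes summed, which removes the split of shared reads, the log2 fold change was 1.66 (edgeR adjusted p = 0.0403) with all hearts.

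Among the small chaperones, Cryab rose with the transgene after constriction. Cryab (Entrez 12955, chr9:50745951-50756636) is alpha-B-crystallin, which binds desmin and titin in heart muscle. Its lowest, median and highest levels were 3386, 3658 and 4127 CPM in TG TAC hearts and 2212, 3001 and 3710 CPM in NTG TAC hearts. All 10 TG TAC hearts lay above the NTG TAC mean, with ranges that overlapped. On the log2 scale the change was 0.27 ± 0.07 (SE, edgeR adjusted p = 0.0148), called with any one heart left out (0.22 to 0.31), though in a fit of those 20 hearts alone its adjusted p was 0.054. In sham hearts Cryab had 3458, 2722, 2974, 2704 and 2890 CPM in TG hearts and 2279, 2446, 2449, 2469 and 2294 CPM in NTG hearts. These did not overlap, and the log2 fold change of 0.30 ± 0.10 (SE, edgeR adjusted p = 0.264) was not called.

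Hspb1 (HSP25 in mice, Entrez 15507, chr5:135887919-135889563), which caps actin filaments and answers stress kinases, had 576, 360, 406, 325 and 416 CPM in TG Sham hearts and 238, 275, 235, 222 and 226 CPM in NTG Sham hearts. These groups did not overlap, and the log2 fold change of 0.80 ± 0.22 (SE, edgeR adjusted p = 0.119) was not called. After constriction Hspb1 lay in a narrow band in TG TAC hearts, with a lowest, median and highest level of 418, 438 and 529 CPM, against 222, 313 and 658 CPM in NTG TAC hearts. The coefficient of variation was 7.28% in TG TAC and 41.9% in NTG TAC hearts, whose replicates 2, 3 and 10 were highest. The fitted log2 fold change was 0.30 ± 0.16 (SE, edgeR adjusted p = 0.212). It was called at 0.55 with voom and quality weights (adjusted p = 0.0124), at 0.44 with the name number, described further on, as a term (edgeR adjusted p = 0.0483) and at 0.67 with 1 surrogate variable (edgeR adjusted p = 0.00231). Of the 100-base windows of Hspb1, 44% recur in the pseudogene Hsp25-ps1, which has no row in the counted genes.

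Hspb6 (HSP20, Entrez 243912, chr7:30552535-30555443), a small chaperone phosphorylated under beta-adrenergic and cyclic nucleotide signalling, had its lower levels in TG Sham hearts. It had 2218, 1904, 2207, 2024 and 1938 CPM in TG Sham hearts and 2649, 2677, 3076, 2789 and 2934 CPM in NTG Sham hearts. Every TG Sham heart was below every NTG Sham heart. On the log2 scale the change was -0.46 ± 0.15 (SE, edgeR adjusted p = 0.283) in the 4-group fit and the same -0.46 with an adjusted p of 0.00034 in an edgeR fit of the 10 sham hearts alone. Hspb7, which binds the thin filament, and Bag3 were not called in sham hearts, with log2 fold changes of -0.12 ± 0.11 and 0.03 ± 0.09 (SE, edgeR adjusted p = 0.979 and 0.998). After constriction the values were -0.15 ± 0.11 for Hspb6, -0.06 ± 0.08 for Hspb7 and 0.15 ± 0.07 for Bag3 (SE, edgeR adjusted p = 0.393, 0.665 and 0.133).

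How the spread was estimated changed which members were called. When each pair of groups was fitted alone, 5 of 10 members were called in sham hearts (Hspa8, Hsph1, Hspb1 and Cryab higher, Hspb6 lower), against 1.9% of genes called in that fit (1.16% higher, 0.747% lower). After constriction 2 of 10 were called (Hspa8 and Hsph1 higher), against 4.61% of genes (2.06% higher, 2.55% lower). Hsph1 and Hspa8 were called in both genotype comparisons under both kinds of fit.

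**Figure D2:**
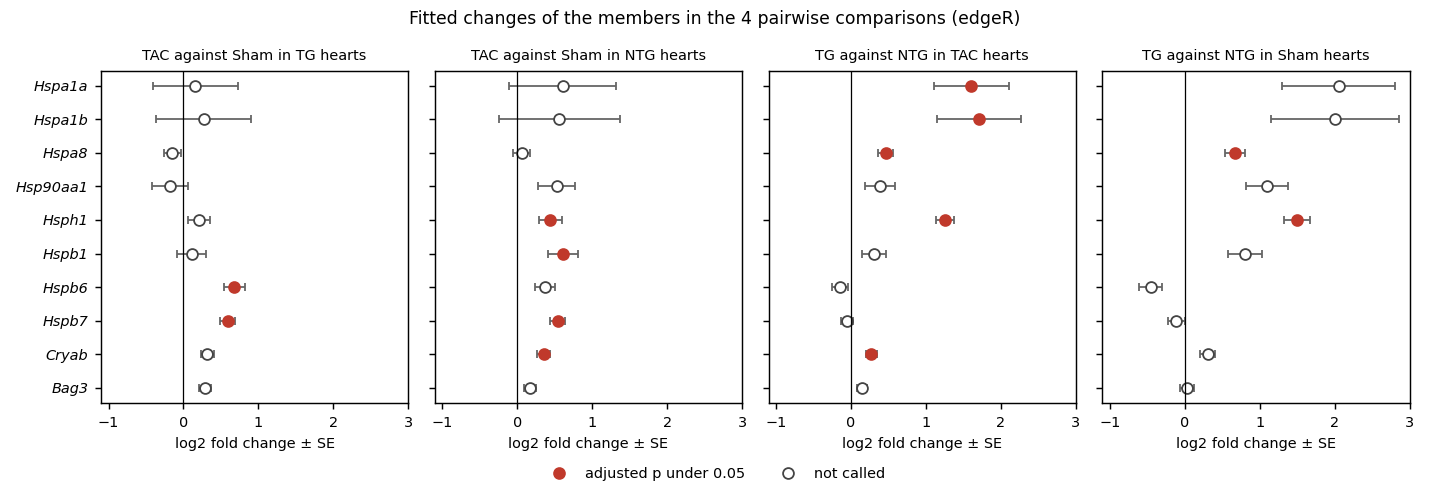
Log2 fold change with its SE (bars) for each of the 10 genes in the 4 comparisons, from edgeR's 4-group fit; filled red points have an adjusted p under 0.05. The Hsph1 points lie at 1.49 and 1.25 in the genotype comparisons, and the Hspb7 points at 0.59 and 0.54 in the TAC comparisons.

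With pressure overload, small heat shock genes of the sarcomere were among the members that rose. In TG hearts Hspb6 and Hspb7 rose and no member fell, which is 2 of 10 members against 1.43% of genes called (0.898% higher, 0.53% lower). In NTG hearts Hspb7, Cryab, Hspb1 and Hsph1 rose and no member fell, which is 4 of 10 against 17.6% of genes called (9.46% higher, 8.13% lower). The members' median log2 fold change was 0.24 in TG and 0.48 in NTG hearts. Hypertrophy genes, which mark the response to load, moved with these results: 2 of 5 rose in TG and 5 of 5 in NTG hearts. In NTG hearts 1 of 6 macrophage markers rose, with a summed level of 185 to 724 CPM in NTG TAC and 212 to 288 CPM in NTG Sham hearts, and 4 of 9 ventricular muscle markers fell. The part of these genes in the members' values was not tested.

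Hspb7 (Entrez 29818, chr4:141420779-141425310) rose in both genotypes. It had a lowest, median and highest level of 5802, 7518 and 8578 CPM in TG TAC hearts, against 4951, 4707, 5122, 5188 and 5009 CPM in TG Sham hearts. It had 5719, 8166 and 9996 CPM in NTG TAC hearts, against 5097, 5272, 5834, 5670 and 5183 CPM in NTG Sham hearts. Every TG TAC heart lay above every TG Sham heart, and 9 of 10 NTG TAC hearts lay above the highest NTG Sham heart. The fitted log2 fold change was 0.59 ± 0.10 in TG (SE, edgeR adjusted p = 0.00199) and 0.54 ± 0.10 in NTG hearts (SE, edgeR adjusted p = 0.00154). Both calls held with each heart left out in turn, with adjusted p up to 0.0135 in TG and 0.00668 in NTG hearts. Groups without overlap were found among all genes with TAC higher in 0.964% and lower in 0.699% in TG hearts, where 2 of 10 members (Hspb6 and Hspb7) were of this kind, and in 0.898% and 0.78% in NTG hearts, where no member was.

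Hspb6 had a lowest, median and highest level of 2399, 3195 and 4177 CPM in TG TAC hearts, above all 5 TG Sham hearts, whose levels are given above. It had 2278, 3862 and 4902 CPM in NTG TAC hearts, which overlapped the NTG Sham range at its low end. On the log2 scale the change was 0.68 ± 0.14 in TG (SE, edgeR adjusted p = 0.00563) and 0.37 ± 0.13 in NTG hearts (SE, edgeR adjusted p = 0.0542). The difference between these changes was 0.31 ± 0.19 on the log2 scale (SE, edgeR adjusted p = 0.634), so the 2 genotypes were not shown to differ.

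Cryab rose with load in NTG hearts, with a log2 fold change of 0.35 ± 0.09 (SE, edgeR adjusted p = 0.00851) and 9 of 10 NTG TAC hearts above every NTG Sham heart. It was not called in the fit of NTG hearts alone (0.35, edgeR adjusted p = 0.0867) or with 1 surrogate variable (0.19, edgeR adjusted p = 0.164). In TG hearts the value was 0.32 ± 0.09 (SE, edgeR adjusted p = 0.0575), with 8 of 10 TG TAC hearts above every TG Sham heart. A fit of the TG hearts alone put the same 0.32 at an adjusted p of 0.00136. The annotated span of Cryab contains Hspb2 on the opposite strand; whether counting used strand was not given in the sources used here, and Hspb2 averaged 44.99 ± 3.14 CPM in TG TAC hearts and 46.4 ± 2.60 CPM in TG Sham hearts (SD, n = 10 and 5), and 41.7 ± 4.76 CPM in NTG TAC hearts and 42.6 ± 4.37 CPM in NTG Sham hearts (SD, n = 10 and 5).

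Hspb1 and Hsph1 rose with load in NTG hearts, less firmly. The Hspb1 log2 fold change was 0.61 ± 0.20 (SE, edgeR adjusted p = 0.0345) with 7 of 10 NTG TAC hearts above every NTG Sham heart. That of Hsph1 was 0.44 ± 0.15 (SE, edgeR adjusted p = 0.0444) with 6 of 10 above. Leaving out single hearts ended the Hspb1 call in 7 of 30 cases, with adjusted p up to 0.0776 (sham hearts 1, 3, 4 and 5 and TAC hearts 2, 3 and 10 of the NTG groups). It ended the Hsph1 call in 9 cases, with adjusted p up to 0.132 (sham hearts 1, 3, 4 and 5 and TAC hearts 2, 3, 4, 5 and 8). Without NTG Sham replicate 5, the heart with lymphocyte markers, the edgeR adjusted p was 0.0689 for Hspb1 and 0.0574 for Hsph1. With 1 surrogate variable the Hspb1 log2 fold change was 0.16 (edgeR adjusted p = 0.705) and that of Hsph1 0.40 (edgeR adjusted p = 0.302), and in the fit of NTG hearts alone the adjusted p was 0.150 and 0.127. With voom and quality weights Hspb1 had 0.34 (adjusted p = 0.122) and Hsph1 0.42 (adjusted p = 0.0546), and with no filter on low counts neither was called (edgeR adjusted p = 0.0513 and 0.0635). In TG hearts the log2 fold changes were 0.11 ± 0.19 for Hspb1 and 0.20 ± 0.15 for Hsph1 (SE, edgeR adjusted p = 0.849 and 0.553).

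Bag3 (Entrez 29810, chr7:128523583-128546981), the co-chaperone that hands damaged sarcomere proteins to autophagy, had a lowest, median and highest level of 597, 656 and 823 CPM in TG TAC hearts, against 599, 582, 623, 546 and 476 CPM in TG Sham hearts. It had 511, 616 and 766 CPM in NTG TAC hearts, against 516, 603, 556, 548 and 545 CPM in NTG Sham hearts. In TG hearts 9 of 10 TAC hearts lay above every Sham heart, and in NTG hearts 7 of 10 did. The fitted log2 fold change was 0.29 ± 0.08 in TG (SE, edgeR adjusted p = 0.0676) and 0.17 ± 0.08 in NTG hearts (SE, edgeR adjusted p = 0.147), and the TG value was called when TG hearts were fitted alone (edgeR adjusted p = 0.0203).

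The cytosolic folding genes were not called with load in TG hearts. Hspa8 had a log2 fold change of -0.15 ± 0.11 in TG and 0.06 ± 0.12 in NTG hearts (SE, edgeR adjusted p = 0.594 and 0.765). Hsp90aa1 had -0.18 ± 0.24 in TG and 0.53 ± 0.25 in NTG hearts (SE, edgeR adjusted p = 0.787 and 0.137). Hspa1a had 0.16 ± 0.56 in TG and 0.61 ± 0.71 in NTG hearts, and Hspa1b had 0.27 ± 0.64 and 0.56 ± 0.81 in the same order (SE, edgeR adjusted p of 0.595 or more for all 4). The signs of the TG values of Hspa1a, Hspa1b, Hspa8 and Hsp90aa1 turn under some settings, listed in the closing section.

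The 2 kinds of fit differed here too. In fits of only the groups compared, 4 of 10 members were called in TG hearts (Hspb6, Hspb7, Cryab and Bag3 higher) against 7.22% of genes called (4.21% higher, 3.01% lower), and 1 of 10 in NTG hearts (Hspb7 higher, edgeR adjusted p = 0.0408) against 1.64% of genes called (0.993% higher, 0.647% lower). Hspb7 was called in both genotypes under both kinds of fit.

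The test of whether load acted differently in TG and NTG hearts called 0 of 10 members by edgeR, against 0.0% of genes, and 0 of 10 by DESeq2, by voom with quality weights and by limma-trend. At an unadjusted p under 0.05, edgeR gave 1 member, Hsp90aa1, with -0.71 ± 0.34 on the log2 scale (SE, edgeR adjusted p = 0.614). Hspb1 had -0.50 ± 0.27 (SE, edgeR adjusted p = 0.621).

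Sample names carry a number whose meaning the labels do not give, and it runs with the groups. A number of 100 or more marks 1 of the 10 TG TAC hearts and each of the 5 TG Sham hearts, against 3 of the 10 NTG hearts with constriction and 4 of the 5 with sham surgery. Between hearts of like numbers Hsph1 still stood higher in TG hearts, by 1.51 on the log2 scale in sham hearts of 100 or more (5 against 4), and after constriction by 1.40 under 100 (9 against 7) and 0.96 at 100 or more (1 against 3). Hspa8 gave 0.65, 0.53 and 0.47 for the same 3 contrasts. Cryab after constriction gave 0.34 under 100 and 0.06 at 100 or more, Hspa1a 1.44 and 0.25, and Hspa1b 1.31 and -0.10. For load in NTG hearts the differences under 100 (7 against 1) and at 100 or more (3 against 4) were 0.56 and 0.55 for Hspb7, 0.35 and 0.44 for Cryab, 0.37 and 1.02 for Hspb1 and 0.18 and 0.73 for Hsph1. For load in TG hearts the number and the surgery nearly coincide: 1 TG TAC heart could be set against 5 TG Sham hearts, at 0.22 for both Hspb6 and Hspb7. This heart, TG TAC replicate 1, is also the 1 TG heart in the contrasts of constricted hearts at 100 or more. Its level of Nppa, read further on as a measure of the stress response, was 87.8 CPM, within the TG Sham range of 48.8 to 177 CPM. The other 9 TG TAC hearts lay above it across a 2.96-fold gap. The 3 NTG TAC hearts set against it had 386, 9462 and 9009 CPM of Nppa. With the number as a term in the edgeR fit, Hspb6 had 0.59 (adjusted p = 0.183) and Hspb7 had 0.57 (adjusted p = 0.068), so no member was called with load in TG hearts.

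Genes outside the members were counted from 8 wider lists. These held chaperone families and also heat shock factors, the BAG family, and partners and clients of Bag3, which are not all chaperones. Of their 70 genes, 66 passed the filter on low counts. With the transgene, 9 rose and 0 fell in sham hearts, where 0.596% of all genes rose and 0.132% fell. After constriction 16 rose and 3 fell, against 4.57% and 6.86% of all genes. HSP90 and its co-chaperones held the larger part in sham hearts. Of 14 genes of this list, 7 rose in sham hearts and 8 after constriction, beside the same shares of all genes, none fell, and their median log2 fold changes were 0.31 and 0.34, with the median of all genes within 0.007 of 0. Over the other fits and with each heart left out, 5 to 9 were called in sham hearts and 8 after constriction. The lists were chosen with earlier results of these data known. Their counts therefore describe the listed genes, here and with load, and do not test them against all genes.

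Hsp90ab1, the constitutive HSP90, ranged over 2582 to 2875 CPM in TG TAC hearts and 1669 to 2058 CPM in NTG TAC hearts. In sham hearts it ranged over 2399 to 2732 CPM in TG and 1686 to 1917 CPM in NTG hearts. The TG and NTG ranges did not overlap at either surgery. It rose by 0.54 ± 0.04 on the log2 scale after constriction (SE, edgeR adjusted p = 4.06e-10) and by 0.51 ± 0.06 in sham hearts (SE, edgeR adjusted p = 3.31e-06). Unc45b, the muscle co-chaperone that folds myosin with HSP90, ranged over 284 to 398 CPM in TG TAC hearts and 146 to 238 CPM in NTG TAC hearts, and over 328 to 447 CPM in TG Sham and 203 to 243 CPM in NTG Sham hearts, again without overlap. Its log2 fold changes were 0.79 ± 0.08 (SE, edgeR adjusted p = 3.7e-08) and 0.78 ± 0.11 (SE, edgeR adjusted p = 4.64e-05).

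Stip1, which bridges HSP70 and HSP90, rose by 0.45 ± 0.05 after constriction (SE, edgeR adjusted p = 1.75e-06) and 0.50 ± 0.08 in sham hearts (SE, edgeR adjusted p = 0.000148). Ahsa2, an activator of the HSP90 ATPase, rose by 0.57 ± 0.09 in sham hearts (SE, edgeR adjusted p = 0.000412). Cct7, a subunit of the chaperonin that folds actin and tubulin, rose by 0.35 ± 0.04 after constriction (SE, edgeR adjusted p = 1.75e-06), where 5 of 14 chaperonin and prefoldin genes rose against 4.57% of all genes. Hsf1 itself had log2 fold changes of 0.08 ± 0.06 after constriction (SE, edgeR adjusted p = 0.413) and -0.01 in sham hearts. None of the 4 heat shock factor genes tested was called by edgeR in any comparison, and none had an unadjusted p under 0.05.

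**Figure D3:**
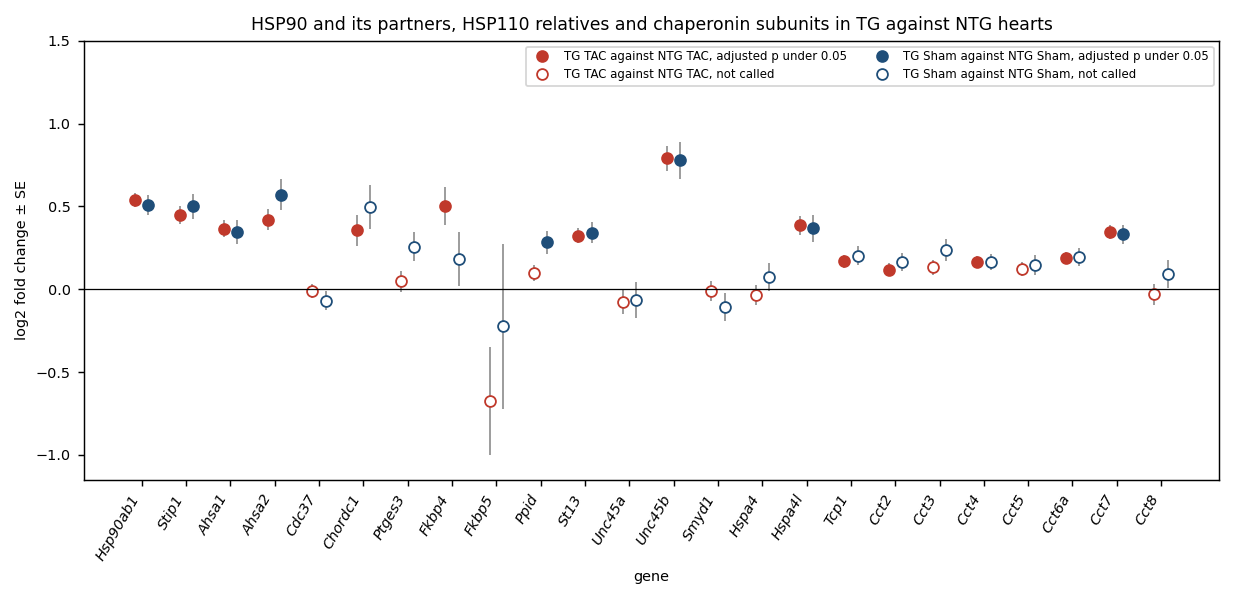
Log2 fold change with its SE (bars) of TG against NTG hearts, after constriction (red) and in sham hearts (blue), for HSP90 and its co-chaperones, Hspa4, Hspa4l and the chaperonin subunits; filled points have an edgeR adjusted p under 0.05. Hsp90ab1 lies at 0.54 and 0.51 and Unc45b at 0.79 and 0.78.

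With load, 2 of these 66 genes rose and 2 fell in TG hearts, where 0.898% of all genes rose and 0.53% fell. In NTG hearts 11 rose and 2 fell, against 9.46% and 8.13% of all genes, so the 13 called were read beside a background of 17.6%. None of the 14 genes of the HSP90 list was called by edgeR with load in either genotype, and 4 had an unadjusted p under 0.05 in each. Hspb8, the small chaperone that binds Bag3, rose in both: it averaged 1016 ± 101 CPM in TG TAC and 761 ± 74.0 CPM in TG Sham hearts (SD, n = 10 and 5), and 1062 ± 114.9 CPM in NTG TAC and 824 ± 67.5 CPM in NTG Sham hearts (SD, n = 10 and 5). Its log2 fold change was 0.42 ± 0.08 in TG (SE, edgeR adjusted p = 0.00432) and 0.37 ± 0.08 in NTG hearts (SE, edgeR adjusted p = 0.00442). With the name number as a term the TG adjusted p was 0.0762. In TG hearts Vbp1 and Pfdn6, 2 prefoldin subunits, fell by 0.27 ± 0.06 and 0.32 ± 0.08 on the log2 scale, and Dnajb6, a J-domain partner of HSP70, rose by 0.25 ± 0.06 (SE, edgeR adjusted p = 0.0243, 0.0378 and 0.0426); leaving out single hearts ended these calls in 4, 9 and 16 of 30 cases, NTG Sham replicate 5 among them for Dnajb6 (edgeR adjusted p = 0.0512). With the name number as a term none of the 3 was called (edgeR adjusted p = 0.240, 0.313 and 0.307). In NTG hearts Des (desmin, 0.65 ± 0.15) and Hspa1l (1.06 ± 0.26) rose and Hspa12a fell by 0.66 ± 0.13 on the log2 scale (SE, edgeR adjusted p = 0.00483, 0.00875 and 0.00275). With 1 surrogate variable in the fit, these 3 and Hspb8 were no longer called in NTG hearts, and in the fit of NTG hearts alone Des and Hspa1l were not (edgeR adjusted p = 0.0769 and 0.0756). Of 8 genes listed as partners and clients of Bag3, 1 rose in TG hearts and 4 in NTG hearts, beside the shares just given (0.898% and 9.46% of all genes higher).

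Between hearts of one group, several members varied together. Deviations from the group means were compared over 30 hearts for 45 pairs, and 25 pairs passed an adjusted permutation p of 0.05 by Pearson's r. The pair of Hspa1a and Hspa1b is among the 25. The share of all gene pairs that would pass was not computed, so the count is not read as a trait of these genes. Hspa8 and Hsp90aa1 had r = 0.84 and rho = 0.84 (permutation test, adjusted p = 7.5e-05 and 0.000112), and r = 0.78 without the 2 hearts farthest from the median. Hsp90aa1 and Hspb1 had r = 0.85 and rho = 0.78 (permutation test, adjusted p = 7.5e-05 and 0.00036), and r = 0.78 without 2 hearts. Hspb6 and Hspb7 had r = 0.84 and rho = 0.85 (permutation test, adjusted p = 7.5e-05 and 0.000112), and r = 0.84 without 2 hearts. Hspa8 and Hspb7 had r = -0.06 and rho = -0.25 (permutation test, adjusted p = 0.84 and 0.285). Hspa1a and Hspa1b, which share reads, had r = 0.98 and rho = 0.97. The smallest unadjusted p that these permutations give is 1e-05, and all libraries share the same scaling.

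**Figure D4:**
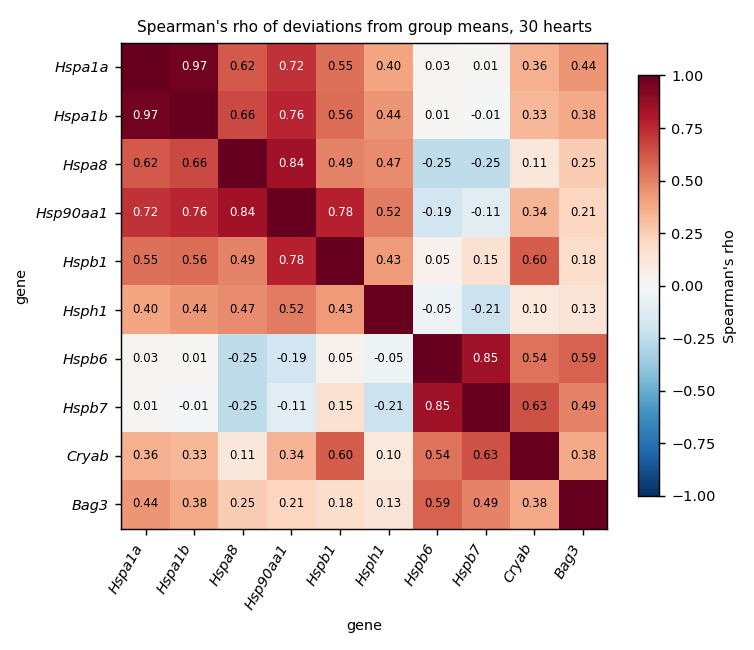
Spearman's rho of the deviations from group means over 30 hearts for each pair of the 10 genes, on a colour scale. Hspa8 with Hsp90aa1 has 0.84, Hspa1a with Hspa8 0.62 and Hspb6 with Hspb7 0.85. Hspb1 has 0.78 with Hsp90aa1. Cryab has 0.63 with Hspb7 and 0.60 with Hspb1, so the members do not fall into separate blocks.

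The genes most like each member over all 13588 tested, by Spearman's rho of the same deviations over 30 hearts and with no test, are given here in order. Hspa8 was most like Papola (0.92), Egln3 (0.87) and Fam220a (0.84). Hsp90aa1 was most like Serpinh1 (0.93), Slc38a2 (0.90) and Rras2 (0.90). Serpinh1, the collagen chaperone HSP47, was also the third for Hspa1a (0.75) and for Hspa1b (0.77), after each other and Tmem39a (0.80 and 0.83). Hsph1 was most like Ahsa1 (0.74), Ptpn14 (0.71) and Hsp90ab1 (0.69), 2 of which belong to the HSP90 system. Hspb1 was most like Ankrd10 (0.82), Alpl (0.81) and Nppb (0.80). Hspb6 and Hspb7 were most like each other (0.85) and then Gapdh (0.78 and 0.84), followed by Snapin (0.73) for Hspb6 and Msrb1 (0.83) for Hspb7. Cryab was most like Lgals1 (0.84), Jpt1 (0.83) and Lrp11 (0.83), and Bag3 like Scaf1 (0.73), Atp6v0a1 (0.72) and Vps37c (0.70).

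The spread of Hspa8 and Hsp90aa1 between hearts ran with clock genes, a relation looked for after those values were seen, over 150 pairs of members and clock or cold-inducible genes. Hspa8 against Dbp, a clock output gene, had r = -0.72 and rho = -0.83 (permutation test, adjusted p = 0.000375 for each), and r = -0.79 without 2 hearts. Hsp90aa1 against Dbp had r = -0.67 and rho = -0.70 (permutation test, adjusted p = 0.0005 for each), and r = -0.70 without 2 hearts. Hspb7 and Cryab had r = 0.12 and -0.08 against Dbp (permutation test, adjusted p = 0.615 and 0.75). Against the mean deviation of all 13 clock genes, with no test, rho was -0.72 for Hspa8 and -0.62 for Hsp90aa1. Over the members this rho ran from -0.72 to 0.28 (Hspb7). Against the mean of 2 cold-inducible genes, with no test, rho was negative for every member, from -0.11 for Hspb7 to -0.75 for Bag3. It was -0.51 for Hspa8 and -0.41 for Hsp90aa1. Negative values were thus also found outside the clock genes and these 2 members. Whether the relation is particular to clock genes was not tested. Dbp was 84.1, 87.1, 112.9, 246 and 294 CPM in TG Sham hearts and 142, 116, 270, 278 and 44.4 CPM in NTG Sham hearts, and it spanned 59.1 to 281 CPM in TG TAC and 59.3 to 275 CPM in NTG TAC hearts. The 3 TG Sham hearts with the most Hspa8 were the 3 with the least Dbp of that group. None of 13 clock genes was called by edgeR in any comparison, and none had an unadjusted p under 0.05. The hour of collection was not given in the sources used here, and its part in the members' values was not tested. With the Dbp level as a term, every genotype call above was kept, and Hsp90aa1 was called in sham hearts at 1.02 (edgeR adjusted p = 0.00795). Hsp90aa1 was then also called with load in NTG hearts, at 0.58 (edgeR adjusted p = 0.0252). With load in TG hearts Cryab and Bag3 were called with the Dbp term (edgeR adjusted p = 0.0464 for each). This term was added after the data were seen. The RNA level of 1 gene does not measure the hour of collection, so no conclusion on that hour is drawn from this fit.

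**Figure D5:**
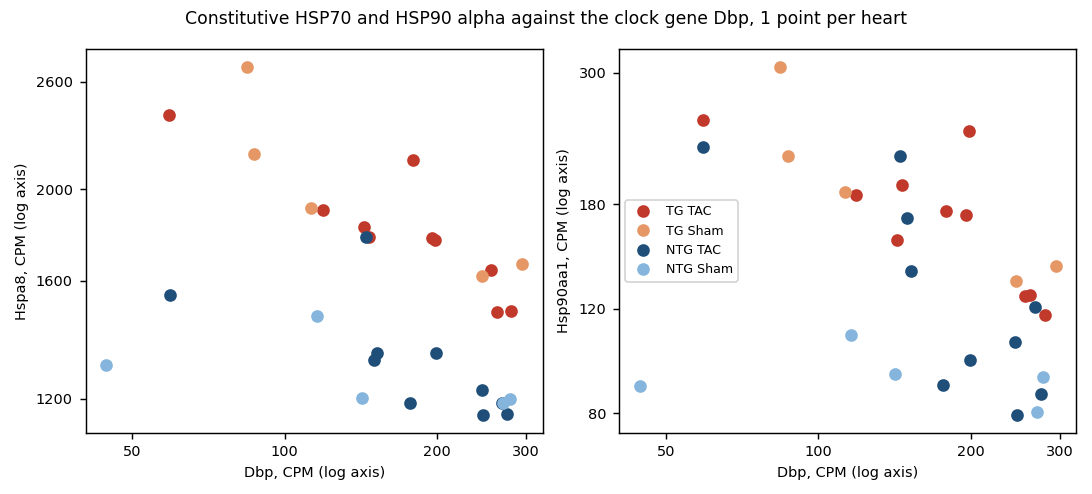
Level of Hspa8 and of Hsp90aa1 (vertical axes) against Dbp (horizontal axes) in each of 30 hearts, in TMM-scaled CPM on log axes, coloured by group. Both fall with rising Dbp within groups (rho = -0.83 and -0.70 after removing group means).

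Within the 10 TG TAC hearts, the strength of the stress response as read from Nppa (atrial natriuretic peptide) ran with 2 of 10 members by Pearson's r. Without the 2 hearts farthest from the median Nppa, 0 members passed the adjusted threshold. The share of all genes with such a relation was not computed. Cryab had r = 0.74 and rho = 0.88 (permutation test, adjusted p = 0.0416 and 0.0148 over 20 relations), and Hspb7 had r = 0.82 and rho = 0.68 (permutation test, adjusted p = 0.039 and 0.0872). Without the 2 hearts farthest from the median Nppa Hspb7 had r = 0.21 and rho = 0.38 (permutation test, unadjusted p = 0.60 and 0.36), so its relation rests on those hearts. Cryab had r = 0.55, short of the threshold, and rho = 0.79 (permutation test, unadjusted p = 0.161 and 0.0281) without them. The TG TAC hearts had a 2.96-fold gap in Nppa, with 1 heart below it and 9 above, and the relations given include that heart. The NTG TAC hearts fell into 2 sets of 5 on either side of a 3.52-fold gap in Nppa, so no pooled relation is given for them. The TG relations are therefore not read as particular to TG hearts. The 10 relations of the NTG TAC hearts count among the 20 of the adjustment.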

How the data were processed

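Messenger RNA from 30 left ventricles was sequenced as strand-specific paired reads of 100 bases on a DNBSEQ instrument from 1.3 µg of total RNA, per the labels' protocols. The submitters' processing notes name Trim Galore 0.6.4, TopHat, Bowtie2 2.2.9, edgeR 3.17 and the mm10 build; the counting program and its strand setting are not given in the sources used here. The authors deposited raw read counts and CPM per gene; the CPM are those counts over the sum of the library. Groups came from the genotype and treatment labels. Of 24467 Entrez identifiers, 24437 matched a RefSeq symbol. No 2 libraries of a group agreed within counting noise (lowest chi-square per degree of freedom 2.85 over 110 pairs). A floor of 3 counts is 0.229 to 0.325 CPM.

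From the deposited counts, edgeR 4.0.16 (R 4.3.3) computed TMM factors, kept 13588 genes with filterByExpr at a minimum count of 10, and fitted a robust quasi-likelihood model of 4 groups. The test is two-sided, with Benjamini-Hochberg adjustment over all genes tested; the SE is the log2 fold change divided by the root of F. The step was tested on simulated data. Alternatives were relative log expression and upper-quartile factors, no filter, a filter of CPM of at least 1 in 5 libraries, DESeq2 1.42.0, voom with quality weights and limma-trend on log2(CPM + 0.5) of the deposited CPM (limma 3.58.1), fits of only the groups compared, a block for the replicate number, a term for the number that sample names carry (split at 100), 1 surrogate variable (sva 3.50.0), summed Hspa1a and Hspa1b counts, and each heart left out in turn. The Dbp level as a term was added after seeing the data. Same-numbered libraries deviated together little at the median (median r = 0.05 over 35 pairs, -0.15 to 0.55, 8 over 0.1). Libraries of unlike number were not compared in this way. Replicate numbers were not taken as pairs in the main fit, and the block for the replicate number is an alternative. Correlations used log2 CPM with a prior count of 2 and 100000 permutations (scipy 1.17.1). Levels per kb used exon lengths of GENCODE vM21, and promoters and positions came from RefSeq on GRCm38.p6.

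The members and gene lists were chosen with earlier results of these data known. All members are named. Of the genes on the wider lists, the 4 with the smallest p among those called in each comparison are named. Hsf1, Hspb2 and Dbp were named after their values were seen. Likeness names 3 genes per member.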

Additional observations from a re-analysis of the deposited data

Results flagged for a closer look

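In 5 of 40 member-by-group sets, 1 heart stood apart from the rest of its group by Dixon's ratio. The nominal rate of about 1 in 20 holds for independent sets of normally distributed values. The ratio was taken on CPM without a log scale, and Hspa1a and Hspa1b share reads. That rate therefore does not measure chance here. TG TAC replicate 9 had 55.1 CPM of Hspa1a, where the next heart of its group had 12.7 CPM. The same heart had 60.5 CPM of Hspa1b, where the next had 12.8 CPM, and 529 CPM of Hspb1, where the next had 473 CPM. NTG TAC replicate 2 had 8.92 CPM of Hspa1a, where the next had 5.21 CPM. NTG TAC replicate 3 had 93.3 CPM of Hsph1, where the next had 68.0 CPM.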

How the results depend on the processing

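Members called, out of 10, with load in TG hearts (2 in the 4-group edgeR fit) were 4 with DESeq2, voom, fits of only the groups compared, 1 surrogate variable or the Dbp term, 3 with the replicate block, 0 with a term for the name number, and 2 to 4 with hearts left out. With load in NTG hearts (4) they were 2 with no filter, 1 with only the groups compared, 1 with 1 surrogate variable and 6 with the replicate block. There they were 5 with DESeq2 or the Dbp term, 3 with voom or limma-trend and 2 to 5 with hearts left out. For the genotype in sham hearts (2) they were 4 with DESeq2, 5 with voom, with only the groups compared or with 1 surrogate variable, 3 with the Dbp term and 1 to 4 with hearts left out. For the genotype after constriction (5) they were 3 with no filter, limma-trend or the replicate block, 2 with only the groups compared, 6 with 1 surrogate variable and 3 to 5 with hearts left out. The interaction had 0 in all. The replicate block ended the Hspa1a call (log2 fold change 1.13, edgeR adjusted p = 0.103) and the Hspa1b call (0.97, edgeR adjusted p = 0.234) and, in NTG hearts with load, brought Hspb6 to 0.41 (edgeR adjusted p = 0.0395) and Bag3 to 0.23 (edgeR adjusted p = 0.041). With load in TG hearts it brought Bag3 to 0.35 (edgeR adjusted p = 0.0188) and ended the calls of Vbp1, Pfdn6 and Dnajb6 (edgeR adjusted p = 0.0717, 0.133 and 0.0815). Member pairs past the threshold numbered 16 in place of 25, and Nppa relations 0 in place of 2, without the 2 farthest hearts. Over 66 single values, 2627 alternative values kept sign and side of the threshold, 50 passed it only there, 26 changed sign and the others fell short of it; the causes were not tested.

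The sign changes all concern values not called. With load in TG hearts, Hspa1a was -0.32 with voom, -0.15 with limma-trend, -0.33 with the replicate block and -0.66 to 0.53 with hearts left out. Hspa1b was -0.43, -0.26 and -0.54 in the same fits and -0.79 to 0.67 with hearts left out. With the name number as a term Hspa8 was 0.069 and Hsp90aa1 0.18, and Hsp90aa1 was -0.29 to 0.034 with hearts left out. With load in NTG hearts, Hspa8 was -0.018 with voom, and with 1 surrogate variable Hspa8 was -0.059, Hspa1a -0.20 and Hspa1b -0.37. For the genotype, Bag3 was -0.0080 to 0.083 in sham hearts with hearts left out, and Hspb7 was 0.044 after constriction with 1 surrogate variable. The interaction of Cryab was 0.053 with voom, 0.12 with 1 surrogate variable and -0.083 to 0.030 with hearts left out; that of Hspa1a was 0.33 and of Hspa1b 0.60 with 1 surrogate variable, and of Hspa1b -1.34 to 0.11 with hearts left out. Depth limits Hspa1a and Hspa1b, with as few as 15 and 13 counts in a library.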
